A study of Mus musculus with 48 samples.

Results

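The genes described here lie within 5 Mb of Neurod6 (also called Nex) on mouse chromosome 6, the gene whose regulatory elements drive Cre recombinase in the Glu-CB1 line. The region was chosen with earlier results of these data known. Its genes were taken by position, as genes of chromosome 6 in the deposited table that reach into mm10 positions 50677819 to 60681263. Neurod6 itself (55677819 to 55681263) and its neighbor Gm3279 were left out. Of the 24421 genes of the table, 107 met this rule, and 46 of them had 10 or more counts in at least 24 of the 48 libraries and were analyzed gene by gene.

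Neurod6 codes for a basic helix-loop-helix transcription factor of glutamatergic neurons of the cortex and hippocampus, and the Nex-Cre strain carries Cre in place of its coding sequence on the targeted allele. When a strain is made by gene targeting and then crossed to another strain, DNA that lies close to the targeted allele is inherited with it, so mice with Cre can also carry the neighboring DNA of the strain of the stem cells. The mice of the GABA-CB1 line carry no nex-cre allele.

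RNA-sequencing was done on hippocampal Cornu Ammonis (CA) tissue of male mice, labelled as 8 weeks old, with 1 mouse per library. All mice carried floxed alleles of the gene for the CB1 receptor (CB1f/f). In the Glu-CB1 line, 14 Glu-CB1-KO mice carried nex-cre, which deletes CB1 in glutamatergic neurons, and 10 CB1-WT littermates did not. In the GABA-CB1 line, 11 GABA-CB1-KO mice carried dlx5/6-cre, which deletes CB1 in GABAergic neurons, and 13 CB1-WT littermates did not. The Glu-CB1 line gave 5 WT and 7 KO libraries in the basal state (home cage), and again 5 WT and 7 KO libraries after 5 min in an open field. The GABA-CB1 line gave 6 WT and 6 KO libraries in the basal state and 7 WT and 5 KO libraries after the open field. These sizes follow the labels, whereas the study's text gives 5 WT and 7 KO mice for this line after the open field. The levels of the CB1 gene given below separate the genotypes as labelled.

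The nex-cre allele and the deletion of CB1 were present together in every Glu-CB1-KO mouse, and both were absent in the CB1-WT littermates. A difference that comes with the allele and its neighboring DNA and a difference that comes with the loss of CB1 therefore cannot be told apart within this line. The files hold counts per gene and no alleles, so the strain origin of the region was not read in any mouse. In whole tissue, fewer cells of a type and less RNA per cell cannot be told apart either.

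Totals of counted reads ran from 25892654 to 34091080 per library, with a median of 30975561. The gene for CB1, Cnr1, lay between 203 and 250 CPM (counts scaled to library size, with TMM normalization) in the 14 Glu-CB1-KO libraries against 330 to 412 in their CB1-WT littermates, and between 101 and 159 against 310 to 393 in the GABA-CB1 line. Neurod6, left out of the members, ranged from 198 to 259 CPM in Glu-CB1-KO libraries, from 306 to 401 in Glu-CB1-WT libraries and from 302 to 368 in the GABA-CB1 line. All 8 markers of CA pyramidal neurons had 10 or more counts in every library, and so did the 4 markers of dentate granule cells, the neighboring tissue that was dissected away. Libraries also stood apart within groups: 4 had over 200 CPM of Ttr, a transcript of choroid plexus, and 17 had under 15 CPM of Xkr4, of which 3 and 5 were Glu-CB1-KO libraries (basal and open field) and 2 and 2 were Glu-CB1-WT libraries. In the Glu-CB1 line, the libraries low in Xkr4 were those of all mice with the lowest animal numbers and of a single mouse with a higher number. The range of the animal numbers used as a covariate cuts this line at a higher number and did not separate these mice.

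The region holds families that hippocampal tissue did not express at a measurable level. None of the 19 genes and transcripts of the Hoxa homeobox cluster passed the limit of 10 counts in 24 libraries, and 8 of them had no count in any library. The same was true of the 28 vomeronasal receptor genes (Vmn1r4 to Vmn1r31), of which 16 had no count at all. A further 14 genes were below the limit, among them Ghrhr (the receptor for growth hormone-releasing hormone) and Ppp1r17, and 4 of these 14 were never counted. One of the 14, the microRNA gene Mir1957a, met the rule merely because its annotated copies stretch from 24484967 to 94782876.

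The 46 members that were counted spanned a wide range of levels. On a scale that takes gene length into account (RPKM), the actin regulator Wipf3 stood highest with a mean of 170, followed by the RNA-binding protein gene Hnrnpa2b1 with 138 and the imprinted gene Nap1l5 with 132. At the low end, Prr15 had a mean of 0.244 RPKM, or 10.4 counts per library, and Aqp1, a water channel of choroid plexus, had 0.285.

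In the Glu-CB1 line, with both states in 1 fit and the state as a covariate, 2 of the 46 members passed edgeR's quasi-likelihood test at a Benjamini-Hochberg adjusted p under 0.05. These were Fkbp9 and Pyurf, and both were lower in Glu-CB1-KO mice. Over all 15178 genes tested in this comparison, 39 or 0.257% passed. At an unadjusted p under 0.05, there were 18 of 46 members (39.1%), 7 with higher and 11 with lower values in Glu-CB1-KO mice, whereas 7.34% of all genes tested reached that level, 3.92% higher and 3.42% lower. Among the 18 was Prr15, which met the count limit with 28 libraries and had its highest means in the Glu-CB1-KO groups. The median absolute log2 fold change of the members was 0.07, compared with 0.04 over all genes tested. The plot of fold change against distance shows where along the chromosome these genes lay.

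**Figure D1:**
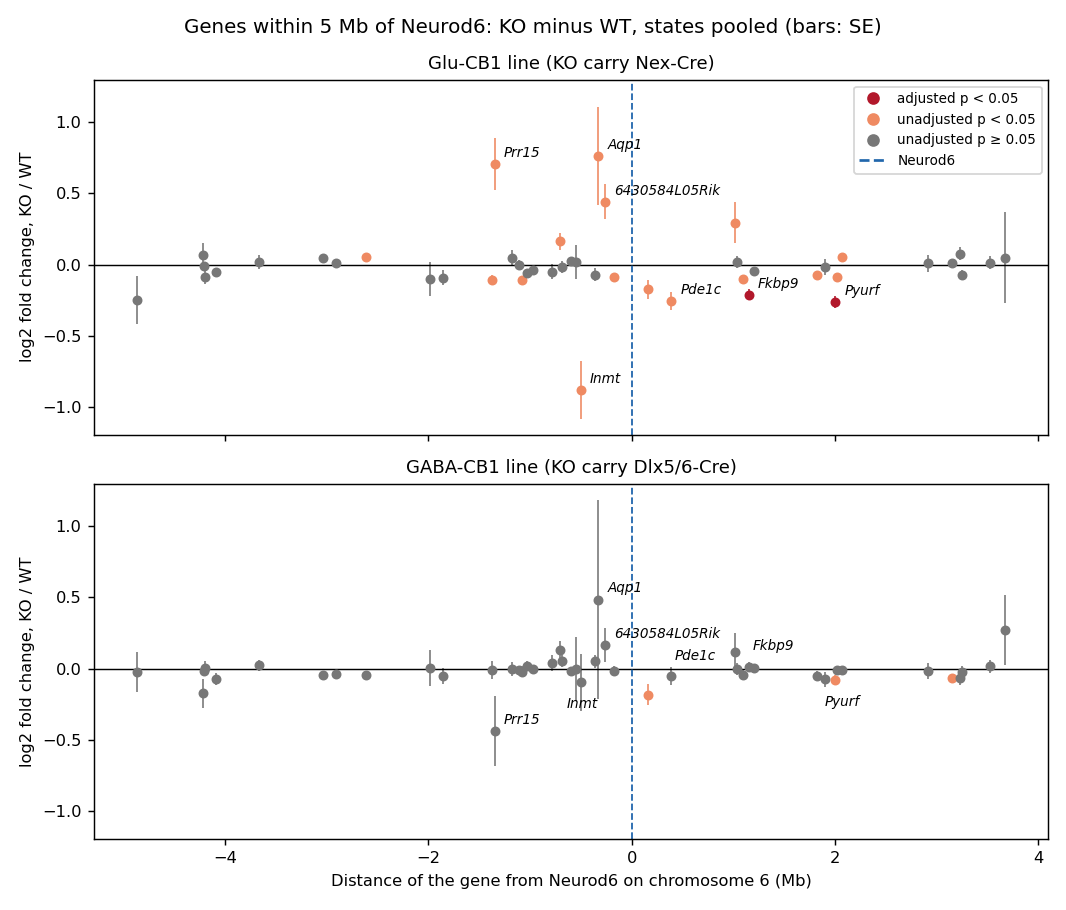
Log2 fold change of KO against WT (vertical axis, bars are the standard error) for each of the 46 members by its distance from Neurod6 in Mb (horizontal axis), with the Glu-CB1 line above and the GABA-CB1 line below. In the Glu-CB1 line, 17 of the 18 colored points lie within 2.5 Mb of the dashed line, and in the GABA-CB1 line 3 points are colored.

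Fkbp9 codes for a peptidyl-prolyl isomerase of the endoplasmic reticulum that takes part in protein folding. It lies on the plus strand at chr6:56832059-56879360, 1.15 Mb from Neurod6. In the basal state, its level was 41.2, 44.5, 44.8, 46.4 and 47.6 CPM in the 5 Glu-CB1-WT libraries, and 38 at the lowest, 40.8 at the median and 42.5 at the highest in the 7 Glu-CB1-KO libraries. After the open field, the Glu-CB1-WT libraries had 43.6, 44.3, 45.2, 48.5 and 56.0 CPM, and the Glu-CB1-KO libraries ran from 37.3 over a median of 39.5 to 43.4. The groups overlapped slightly in the basal state and did not overlap after the open field. Of the 14 Glu-CB1-KO libraries, 12 were below every one of the 34 libraries without nex-cre, whose lowest value was 41.2 CPM. The log2 fold change over both states was -0.21 (SE 0.04, adjusted p = 0.00583 by edgeR's quasi-likelihood test), so that the fitted level fell by 13.7%. It was -0.17 in the basal state (SE 0.04, adjusted p = 0.94) and -0.26 after the open field (SE 0.06, adjusted p = 0.109), so neither state alone passed the test over all genes.

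Pyurf codes for a small mitochondrial protein. Its exons in the table lie on the minus strand at chr6:57684739-57692078, 2.00 Mb from Neurod6. Basal Glu-CB1-WT libraries had 19.4, 22.2, 22.7, 24.5 and 24.7 CPM, and basal Glu-CB1-KO libraries ranged from 17 to 20.8 with a median of 18.3. After the open field, the Glu-CB1-WT libraries had 20.1, 20.7, 20.9, 22.5 and 23.7 CPM, and the Glu-CB1-KO libraries ranged from 17.3 to 19.9 with a median of 18.3. As with Fkbp9, the genotypes overlapped in the basal state but not after the open field, and all 14 Glu-CB1-KO libraries were below the median of their CB1-WT littermates. The pooled log2 fold change of Pyurf was -0.26 (SE 0.04, adjusted p = 0.0019). It was -0.29 in the basal state (SE 0.07, adjusted p = 0.669) and -0.24 after the open field (SE 0.05, adjusted p = 0.103). In GENCODE vM21, a pair of further gene models, Gm37397 and the pseudogene Gm26712, lie on the same strand within this span, and reads from them cannot be separated from those of Pyurf in these counts.

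Because Fkbp9 and Pyurf were the members that passed the test, the 250 bases before their RefSeq start sites are given here from the reference genome (GRCm38.p6), 5′ to 3′ on the strand of each gene. Capitals mark matches of the E-box letters CANNTG, the core sequence that basic helix-loop-helix factors bind. The motif was searched on the strand shown, and because it reads the same on each strand, this covers both.

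Fkbp9, chr6:56831809-56832058, plus strand: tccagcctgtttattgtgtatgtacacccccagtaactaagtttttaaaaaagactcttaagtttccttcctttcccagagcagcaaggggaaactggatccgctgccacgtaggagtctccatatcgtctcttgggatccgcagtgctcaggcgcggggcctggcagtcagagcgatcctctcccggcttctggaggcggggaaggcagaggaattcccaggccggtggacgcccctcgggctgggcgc

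Pyurf, chr6:57692079-57692328, minus strand: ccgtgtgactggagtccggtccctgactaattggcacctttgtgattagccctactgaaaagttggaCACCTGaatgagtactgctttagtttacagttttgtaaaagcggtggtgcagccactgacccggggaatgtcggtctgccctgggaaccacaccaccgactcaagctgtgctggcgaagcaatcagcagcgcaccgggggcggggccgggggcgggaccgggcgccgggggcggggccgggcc

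The window of Fkbp9 held no match, and that of Pyurf held 1. A match of these letters is common: 66.2% of all 32851 RefSeq promoter windows of this length hold at least 1, as do 43 of the 59 windows of members (72.9%). The letters describe the reference sequence and not the alleles of these mice.

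Among the remaining members, 4 reached an unadjusted p under 0.05 in the same direction in both states of the Glu-CB1 line without passing the adjusted threshold. Inmt, the gene for indolethylamine N-methyltransferase 0.50 Mb from Neurod6, had the largest negative value. Its level was low, with 0.467 to 1.86 CPM in basal Glu-CB1-WT libraries and 0.284 to 1.04 in basal Glu-CB1-KO libraries, and 0.907 to 2.59 against 0.565 to 1.24 after the open field. The genotypes overlapped in both states, although all 14 Glu-CB1-KO libraries were below the median of the Glu-CB1-WT libraries. Its pooled log2 fold change was -0.88 (SE 0.20, adjusted p = 0.0567), and this just missed the threshold. With DESeq2, Inmt did pass (adjusted p = 0.00765), and over 7 alternatives the adjusted p ran from 0.00765 to 0.0708.

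Pde1c, a calcium- and calmodulin-dependent phosphodiesterase of cyclic nucleotides, lies 0.39 Mb from Neurod6. Its libraries gave 8.71 to 11.3 CPM in basal Glu-CB1-WT mice and 7.27 to 9.52 in basal Glu-CB1-KO mice, and 8.96 to 11.1 against 6.75 to 10.1 after the open field. All 14 Glu-CB1-KO libraries were below the median of the Glu-CB1-WT libraries, and 8 were below the lowest of them. The pooled log2 fold change was -0.26 (SE 0.06, adjusted p = 0.0947), with an adjusted p of 0.0202 in DESeq2 and a range from 0.0140 to 0.246 over 8 alternatives.

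A pair of members of very low level had positive values. Prr15, 1.35 Mb from Neurod6, was counted at 0.143 to 0.419 CPM in basal Glu-CB1-WT libraries and at 0.274 to 0.601 in basal Glu-CB1-KO libraries, and at 0.189 to 0.390 against 0.310 to 0.611 after the open field. All 14 Glu-CB1-KO libraries were above the Glu-CB1-WT median. Prr15 met the count limit with 28 of the 48 libraries, and its means were highest in the Glu-CB1-KO groups. It is thus a member in part through the group where it is high, and its positive value is not independent of the filter. Its pooled log2 fold change was 0.71 (SE 0.18, adjusted p = 0.113). Prr15 lies inside the span of 9130019P16Rik, a gene of the opposite strand, but their exons do not overlap. The long noncoding RNA gene 6430584L05Rik, 0.27 Mb from Neurod6, had 1.03 to 1.97 CPM in basal Glu-CB1-WT libraries and 1.39 to 2.84 in basal Glu-CB1-KO libraries, with 1.12 to 1.55 against 1.50 to 2.66 after the open field. Its log2 fold change was 0.44 (SE 0.12, adjusted p = 0.172), and 13 of the 14 Glu-CB1-KO libraries were above the Glu-CB1-WT median. Neither gene passed the test in any alternative of the pooled comparison.

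**Figure D2:**
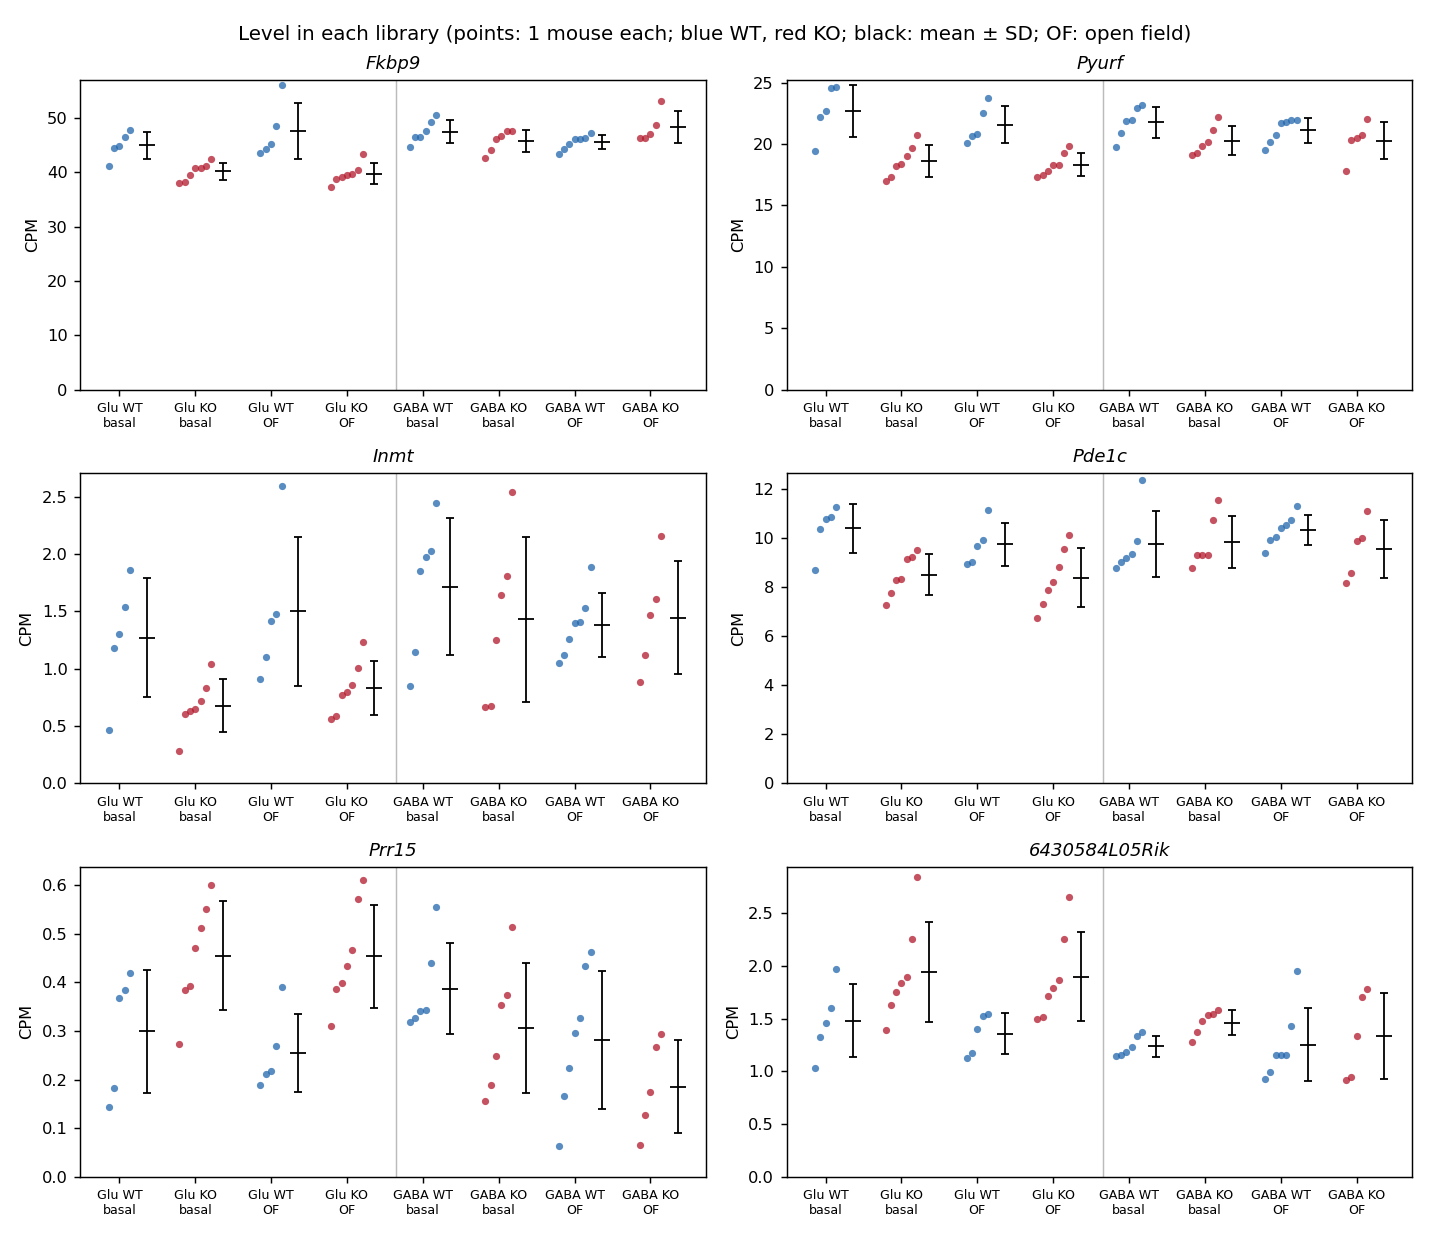
Level in CPM (vertical axes, from 0) of 6 members in each of the 48 libraries, by line, genotype and state (horizontal axes). Points are single mice, blue for WT and red for KO, with the mean ± SD in black. For Fkbp9, 12 of the 14 Glu-CB1-KO libraries are below all 34 other libraries, and Prr15 is near its detection limit throughout.

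Adcyap1r1, the receptor for the neuropeptide PACAP 0.18 Mb away, was a well expressed gene with a median of 206 CPM in Glu-CB1-WT and 193 in Glu-CB1-KO libraries. Its log2 fold change was -0.09 (SE 0.03, adjusted p = 0.362). Ccdc129 (Itprid1), the nearest member on the other side at 0.16 Mb, had -0.18 (SE 0.07, adjusted p = 0.503), and nearly the same value in the GABA-CB1 line (-0.18, SE 0.07, adjusted p = 0.461). Lsm5, a subunit of the ring of Lsm proteins that binds U6 RNA, had 0.29 (SE 0.14, adjusted p = 0.671) at a mean of 16.7 counts per library.

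Aqp1, 0.33 Mb from Neurod6, had the largest positive value of the region in the Glu-CB1 line, a log2 fold change of 0.76 (SE 0.34, adjusted p = 0.621). Its highest libraries were the 4 with over 200 CPM of Ttr, in which Aqp1 reached 1.45 to 9.77 CPM. The 8 choroid plexus markers, of which 6 had 10 or more counts in every library and 0 were without counts throughout, summed to 43.8 to 649 CPM in basal Glu-CB1-KO libraries against 56.8 to 104 in basal Glu-CB1-WT libraries, and to 51.8 to 293 against 59.2 to 128 after the open field. Of these 4 libraries, this comparison held 1 basal and 1 open field Glu-CB1-KO library, and the others belong to the GABA-CB1 line. Without the libraries high in Ttr (chosen after seeing the data), the value of Aqp1 was 0.26 (adjusted p = 0.861). The values of Fkbp9 (-0.22, adjusted p = 0.0101) and Pyurf (-0.25, adjusted p = 0.00669) were then nearly as before, and Inmt (-0.93, adjusted p = 0.0478) then passed too.

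The members were also sorted by role, and the counts of these small groups are a description, to be read beside the 39.1% of all members and the 7.34% of all genes with an unadjusted p under 0.05. The 8 tested genes of the list of metabolic enzymes included 1 that passed, Pyurf, whose small mitochondrial protein is not itself an enzyme. In this list, 4 had an unadjusted p under 0.05, all with values below 0. These were Inmt, Pyurf, Ppm1k, a phosphatase that activates the breakdown of branched-chain amino acids, and Lancl2. The median log2 fold change of the 8 genes was -0.06, against -0.00287 over all genes tested. The strongest of them by RPKM were Scrn1 with 49.5 and Hibadh, an enzyme of valine breakdown, with 26.5, and neither reached an unadjusted p of 0.05. Among 7 genes of protein folding, ubiquitin and autophagy, Fkbp9 passed, and Fkbp14, a related isomerase of the endoplasmic reticulum, and Kbtbd2, a substrate adaptor of ubiquitin ligase, had an unadjusted p under 0.05 and values below 0. Fkbp14 had -0.11 (SE 0.03, adjusted p = 0.15) and Kbtbd2 had -0.10 (SE 0.03, adjusted p = 0.221). The most strongly expressed of this group, Herc3 with 55.7 RPKM and the autophagy receptor Tax1bp1 with 53.1, had values of 0.01 each.

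None of the other role groups held a member that passed. Of 7 genes of signalling and the cytoskeleton, Pde1c (-0.26), Chn2, a GTPase-activating protein for Rac (-0.11), and Vopp1 (0.05) had an unadjusted p under 0.05, and Wipf3 had 0.05 (SE 0.05). Exons of Chn2 overlap those of 9130019P16Rik on the opposite strand, so its counts are uncertain there. Of 6 receptor and membrane protein genes, Adcyap1r1 (-0.09), Aqp1 (0.76) and Nod1, an intracellular sensor of bacterial peptidoglycan (0.16), did so, while Tril, of highest RPKM after Adcyap1r1, had -0.09 (SE 0.05). Of 4 genes of transcription and chromatin, the zinc finger gene Jazf1 had 0.05 (SE 0.03) and was the single one below an unadjusted p of 0.05, and Cbx3, a chromatin protein gene, had -0.09 (SE 0.05). Of 3 genes of RNA processing and translation, Lsm5 was below it, while Hnrnpa2b1 had -0.01 and Gars, a glycyl-tRNA synthetase gene, had 0.02. The 3 genes of membrane traffic (Snx10, Avl9 and Plekha8) and the imprinted gene Nap1l5 were above it, Nap1l5 with 0.08 (SE 0.05). Nap1l5 lies inside Herc3 on the opposite strand, and their exons do not overlap.

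Within the basal state, no member passed edgeR's test in the Glu-CB1 line (0.0198% of all genes did), nor with DESeq2, and 14 of 46 members (30.4%) had an unadjusted p under 0.05, 4 higher and 10 lower, beside 3.57% of all genes (1.94% higher and 1.64% lower). After the open field, no member passed either (0.272% of all genes), whereas DESeq2 called 2 (Fkbp9 and Pyurf, with no share over all genes taken). An unadjusted p under 0.05 was found for 10 of 46 members (21.7%), 4 higher and 6 lower, beside 6.97% of all genes (3.91% higher and 3.06% lower). The KO and WT libraries did not overlap for 2 members after the open field, Fkbp9 and Pyurf, compared with 0.716% of all genes, and for no member in the basal state (0.205%). With the states set side by side, 36 of 46 members had the same sign in both (56.8% of all genes did), and 6 members (13%) had an unadjusted p under 0.05 in both with the same sign, beside 0.753% of all genes. These 6 were Fkbp9, Pyurf, Inmt, Pde1c, Prr15 and 6430584L05Rik, and all of them lay within 2.5 Mb. Of them, Prr15 met the count limit with 28 libraries and had its highest means in the Glu-CB1-KO groups. The basal and open field mice were separate animals. The test of whether the genotype difference changed with the state called no member (0% of all genes, and none with DESeq2), and 1 of 46 (Creb5, named after its value was seen) had an unadjusted p under 0.05 beside 2.47% of all genes.

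**Figure D3:**
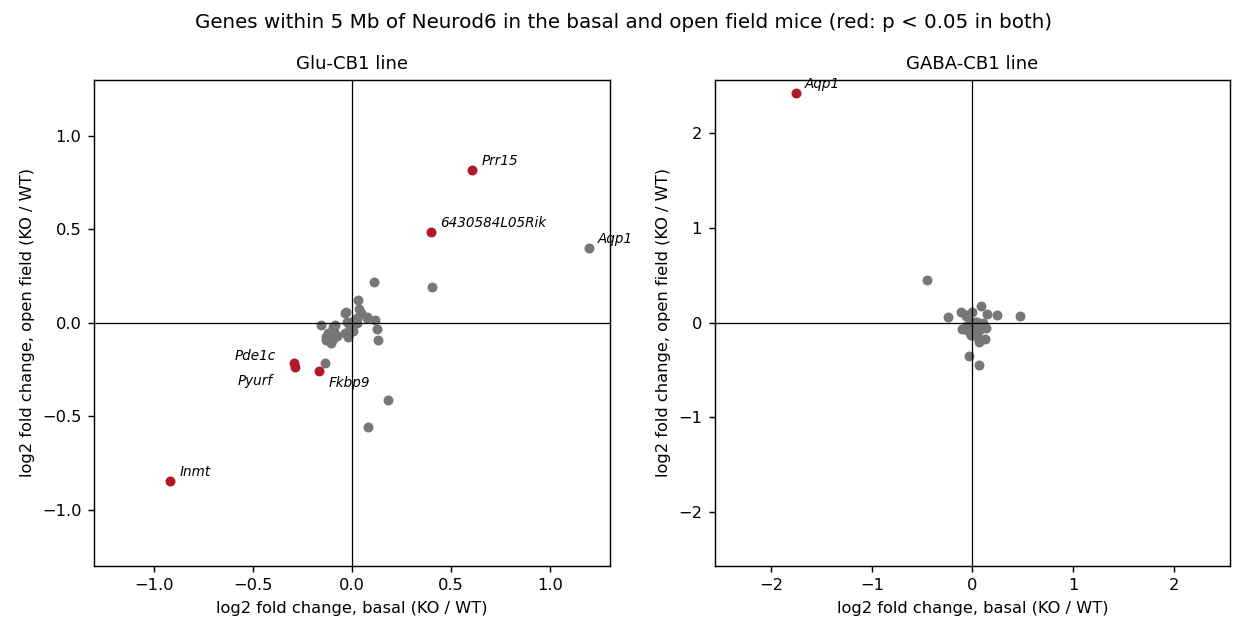
Log2 fold change of KO against WT in the basal state (horizontal axes) and after the open field (vertical axes) for the members in the Glu-CB1 line (left) and the GABA-CB1 line (right), on scales that differ between the panels. In the Glu-CB1 line, 6 members with an unadjusted p under 0.05 in both states (red) have the same sign in both, and in the GABA-CB1 line the red point is Aqp1, with opposite signs.

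The GABA-CB1 line was compared in the same way. It carries no nex-cre, but it also differs in its Cre (dlx5/6-cre), in the neurons that lose CB1 and in its group sizes. Over both states, no member passed edgeR's test there (0.355% of all genes) or DESeq2, and 3 of 46 (6.52%) had an unadjusted p under 0.05 beside 8.27% of all genes. The 3 were Ccdc129, Pyurf and Herc3, all with lower values in the KO group, while 4.19% of all genes had such a lower value. Among basal libraries no member passed (0.245% of all genes), also with DESeq2, and 4 of 46 (8.7%) had an unadjusted p under 0.05 beside 8.16%. These 4, named after their values were seen, were Aqp1 (-1.76), Crhr2, a receptor of the corticotropin-releasing hormone family (-0.45), Znrf2 (0.14) and Plekha8 (0.09). The highest Crhr2 level among basal GABA-CB1-WT libraries, 2.69 CPM, was in the library high in Ttr, and across the 48 libraries Crhr2 had a Pearson's r of 0.734 with the summed choroid plexus markers. The part of these markers in the value of Crhr2 was not tested. After the open field no member passed with either tool (0.0199% of all genes), and 6 of 45 tested members (13.3%) had an unadjusted p under 0.05 beside 13.2%, so the share of members was close to that of all genes in both states. The KO and WT libraries did not overlap for Ccdc129 after the open field (-0.35, SE 0.09, adjusted p = 0.191), as for 0.98% of all genes. Aqp1 had -1.76 in the basal state (SE 0.72, adjusted p = 0.57) and 2.42 after the open field (SE 0.85, adjusted p = 0.285), with 1 library high in Ttr in the basal WT group and 1 in the open field KO group. No member had an unadjusted p under 0.05 in both states with the same sign (0.779% of all genes), and 16 of 45 (35.6%) had the same sign beside 42% of all genes. The change of the genotype difference with the state called no member in this line (0% of all genes, none with DESeq2), and 12 of 46 (26.1%) had an unadjusted p under 0.05 beside 14.6% of all genes.

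Fkbp9 ranged from 43.3 to 50.4 CPM in the 13 GABA-CB1-WT libraries and from 42.6 to 53.2 in the 11 GABA-CB1-KO libraries, which overlapped broadly (log2 fold change 0.01, SE 0.03, adjusted p = 0.958). Pyurf ranged from 19.5 to 23.2 in GABA-CB1-WT and from 17.8 to 22.2 in GABA-CB1-KO libraries (-0.08, SE 0.04, adjusted p = 0.523). Inmt lay between 0.849 and 2.44 CPM in GABA-CB1-WT and between 0.663 and 2.54 in GABA-CB1-KO libraries (-0.10, SE 0.20, adjusted p = 0.95). Prr15 had a negative value there (-0.44, SE 0.25, adjusted p = 0.69).

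The difference between the lines was tested directly over all 48 libraries. Fkbp9 was the single member whose genotype effect differed between the lines (-0.22, SE 0.05, adjusted p = 0.011), while 0.739% of all genes passed. For Pyurf the difference of -0.18 did not pass (SE 0.05, adjusted p = 0.149), nor did that of Prr15 (1.15, SE 0.31, adjusted p = 0.0588), Inmt (-0.78, SE 0.29, adjusted p = 0.318) or Pde1c (-0.20, SE 0.09, adjusted p = 0.468). At an unadjusted p under 0.05 there were 9 of 46 members (19.6%) beside 8.63% of all genes. Of these 9, 5 were among the 31 members within 2.5 Mb (16.1%), and 4, namely Hibadh, Jazf1, Herc3 and Nap1l5, were among the 15 farther away (26.7%), so the nearer members did not have the larger share in this comparison.

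The CB1-WT mice of the lines, none of which carry Cre, were compared as well. No member passed the test between Glu-CB1-WT and GABA-CB1-WT mice in edgeR or DESeq2 (0% of all genes did), and 1 of 46 (2.17%), Hnrnpa2b1, had an unadjusted p under 0.05 beside 3.89%. The log2 difference of Fkbp9 was -0.01 (SE 0.04) and that of Pyurf 0.05 (SE 0.04).

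In the pooled Glu-CB1 comparison, the share of members below an unadjusted p of 0.05 was larger near Neurod6 than in the outer part of the region. In steps of 1 Mb, the counts were 5 of 11, 3 of 8, 1 of 2, 0 of 2 and 0 of 5 on the side of lower coordinates. On the other side they were 2 of 2, 4 of 7, 3 of 4 and 0 of 5 up to 4 Mb. The share thus did not fall steadily over the first 3 Mb. Within 2.5 Mb, 17 of 31 members (54.8%) were below it, 6 higher and 11 lower, and between 2.5 and 5 Mb 1 of 15 (6.67%). The 17 include Prr15, a member in part through the Glu-CB1-KO libraries, where it was highest. Between 5 and 15 Mb on chromosome 6, the count was 5 of 65 genes (7.69%), and 72 of 707 (10.2%) over all of chromosome 6 beyond the region. The median absolute log2 fold change was 0.09 within 2.5 Mb and 0.05 between 2.5 and 5 Mb. In the GABA-CB1 line, the shares were 2 of 31 (6.45%), 1 of 15 (6.67%), 5 of 65 (7.69%) and 52 of 706 (7.37%) in the same order. The shares were larger near Neurod6 for the change of the genotype difference with the state in the GABA-CB1 line. They were 9 of 31 (29%), 3 of 15 (20%), 6 of 66 (9.09%) and 95 of 710 (13.4%), beside 14.6% of all genes. Genes of a region share their libraries and are not independent of each other, so these shares are given as a description.

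**Figure D4:**
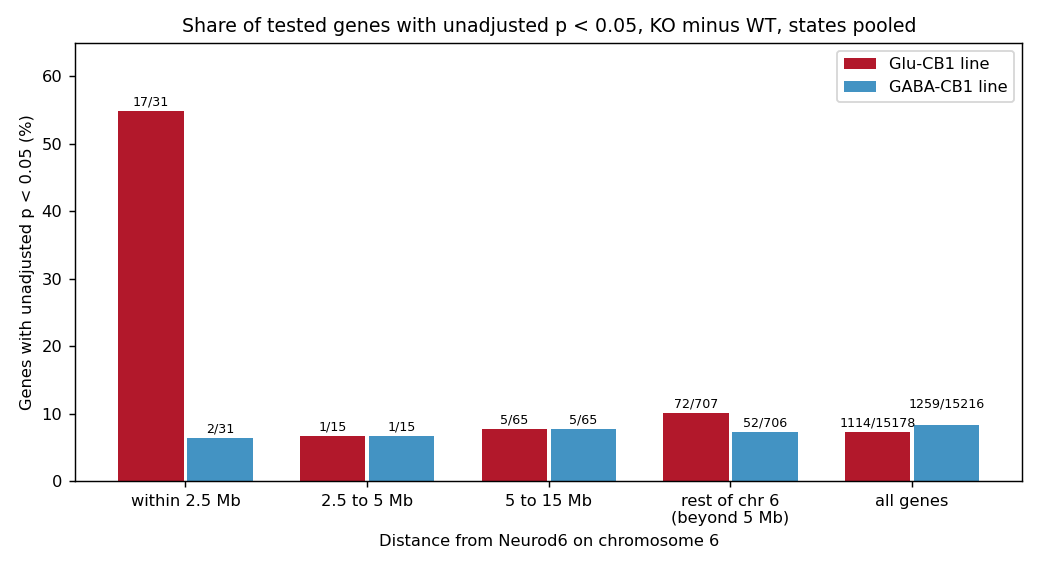
Percentage of tested genes with an unadjusted p under 0.05 (vertical axis, from 0) by distance from Neurod6 on chromosome 6 (horizontal axis), for the pooled comparison in the Glu-CB1 line (red) and the GABA-CB1 line (blue), with the counts above the bars. The bar of the Glu-CB1 line within 2.5 Mb (17 of 31) stands apart from the other bars, which are between 6.45% and 10.2%.

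Just outside the region, 2 genes passed the pooled test in the Glu-CB1 line. Npy, the gene for neuropeptide Y, lies 5.85 Mb away on the side of lower coordinates, with a log2 fold change of 0.48 (SE 0.06, adjusted p = 9.34e-05), and Ccser1 lies 5.50 Mb away on the other side with 0.21 (SE 0.04, adjusted p = 0.00553). The members next to these edges, C530044C16Rik at 4.86 Mb (-0.25, SE 0.17, adjusted p = 0.842) and Gprin3 at 3.67 Mb (0.05, SE 0.32, adjusted p = 0.991), did not pass. Over the whole chromosome, 9 tested genes (1.19%) passed, beside 0.257% of all genes, counting Neurod6 and Gm3279 as well as Fkbp9 and Pyurf. Some of them lay far from Neurod6, with values below 0 in the same edgeR test. Sema4f at 27.2 Mb had -0.20 (SE 0.02, adjusted p = 2.71e-05) and Aak1 at 31.2 Mb had -0.14 (SE 0.03, adjusted p = 0.0129). At 82.9 Mb, B230110G15Rik had -0.82 (SE 0.12, adjusted p = 0.00111).

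A few members varied between libraries with the axes that ran across all groups. Across the 48 libraries, which share the groups and the depth of sequencing, Gprin3 had a Pearson's r of 0.936 with the first principal component, followed by Avl9 with 0.844 and Znrf2, a ubiquitin ligase gene, with 0.836. None of these 3 passed the test in the pooled comparisons. With this component, which held 12.5% of the variance, as a covariate (added after the data were seen), Fkbp9 (adjusted p = 0.00425) and Pyurf (adjusted p = 0.000953) still passed in the Glu-CB1 line, and Inmt (adjusted p = 0.0266) and Pde1c (adjusted p = 0.014) then passed too.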

How the data were processed

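The authors deposited a table of raw counts per gene for the 48 libraries. Per the labels and the study's methods, cDNA from the CA region was amplified (NuGEN Ovation), reads were trimmed, mapped to mm10 with STAR (2.6.0a) and counted per gene with featureCounts (1.6.2) at its setting for reverse-stranded libraries. Whether the libraries keep the strand is not given in the sources used here. If they do not, this setting counts reads of a single orientation, and a gene and an antisense neighbor cannot be told apart where their exons overlap. Totals per library ran from 25892654 to 34091080.

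Each comparison was fitted over all genes with edgeR (4.0.16, R 4.3.3), using TMM normalization, the default low count filter and the quasi-likelihood test. P-values were adjusted by the Benjamini-Hochberg method over all genes tested, and the p-values measure the spread between mice. Fits within a state used the 2 groups compared, and pooled fits used the 24 libraries of a line with the state as a covariate. The genotype effect of the lines was compared over all 48 libraries. Pooled fits and fits within a state share libraries. CPM values are counts scaled to library size after TMM normalization, and RPKM values divide them by the gene length in the table. The scripts were tested on simulated data.

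Named are members with an adjusted p under 0.05 in any comparison, with an unadjusted p under 0.05 in the same direction in both states of a line, or without overlap in both states, up to 3 with the largest values in each direction, and the 3 nearest to Neurod6 on each side. Within role lists, members with an unadjusted p under 0.05 and the 2 of highest level are named as well. The members and lists were chosen with earlier results of these data known. Alternatives were DESeq2 (1.42.0), its size factors, other count filters, the range of the animal numbers in the labels as a covariate, a block for the replicate number, all 48 libraries in 1 fit, each library left out, other widths of the region and other limits of detection. The first principal component as a covariate and leaving out the libraries high in Ttr (those of the 4 that a fit contained) were added after the data were seen. Promoter windows came from RefSeq (GRCm38.p6).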

Additional observations from a re-analysis of the deposited data

Results flagged for a closer look

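In 5 of 80 sets of libraries (10 named genes in 8 groups), 1 library lay far from the others of its group, and chance gives this in about 1 in 20 groups. Aqp1 accounted for 4 of them. Its level was 9.77 CPM in replicate 4 of GABA-CB1-KO after the open field (next 0.554), 5.08 in replicate 3 of basal GABA-CB1-WT (next 0.741), 2.26 in replicate 6 of basal Glu-CB1-KO (next 0.547) and 1.45 in replicate 4 of Glu-CB1-KO after the open field (next 0.714). These are the 4 libraries with over 200 CPM of Ttr. Pde1c stood at 12.4 CPM in replicate 2 of basal GABA-CB1-WT, with 9.86 in the next library.

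The effect of the genotype on Fkbp9 differed between the lines, with a log2 difference of -0.22 (adjusted p = 0.011 by edgeR's quasi-likelihood test).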

How the results depend on the processing

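Fkbp9 and Pyurf passed the pooled test of the Glu-CB1 line in 8 of 8 alternatives and in 24 of 24 fits that left out 1 library, with a highest adjusted p of 0.0159 for Fkbp9 and 0.0127 for Pyurf. With DESeq2 and with the first principal component as a covariate, 4 members passed in place of 2 (Inmt and Pde1c were added), and 3 without the libraries high in Ttr (Inmt, adjusted p = 0.0478). With DESeq2 and with the principal component, 2 passed in place of 1 for the difference between lines (Prr15 was added), as also with the range of the animal numbers. Because Prr15 met the count limit in part through the Glu-CB1-KO libraries, where it was highest, these calls are not independent of the filter. After the open field, 2 members passed in the Glu-CB1 line with DESeq2, 1 with all 48 libraries in 1 fit and 1 with the principal component, in place of 0, and with all 48 libraries 1 passed in the basal state (Pyurf). The number of members with an unadjusted p under 0.05 in the basal Glu-CB1 comparison was 9 in place of 14 with 10 or more counts required in every library, and 9 without the libraries high in Ttr. The stricter count filter also left fewer members to test. In the basal GABA-CB1 comparison it was 1 with the animal numbers, 2 with all 48 libraries and 0 without the libraries high in Ttr, in place of 4. With the principal component it was 5 in place of 3 in the pooled GABA-CB1 comparison, and with the stricter count filter 5 in place of 9 for the difference between lines. Leaving out 1 library gave 8 to 14 (basal Glu-CB1), 9 to 12 (open field), 15 to 20 (pooled), 0 to 7 (basal GABA-CB1), 5 to 10 (open field) and 1 to 6 (pooled), with 2 to 3 members passing the pooled test of the Glu-CB1 line and 0 in the other comparisons so tested. The fewest in the basal state came without replicate 4 of Glu-CB1-WT (8) and replicate 3 of GABA-CB1-WT (0), the latter high in Ttr. The line difference of Ccdc129 changed sign with the animal numbers (-0.00288, against 0.01). The cause of these differences was not tested. Shares over all genes were taken for the main fits only, so the counts under alternatives have no such share beside them.

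Same-numbered libraries did not deviate together at the median: of 21 pairs, 4 had a correlation over 0.1 (median -0.0503, against 0.0117 for other pairs). The correlations ran from -0.335 to 0.317. Whether single pairs share a litter or handling is not given in the labels and was not tested. With the replicate number as a block, Fkbp9 (adjusted p = 0.00621) and Pyurf (0.0127) passed, and the counts at an unadjusted p under 0.05 were 9 (basal Glu-CB1), 1 (basal GABA-CB1) and 1 (pooled GABA-CB1). These counts too have no share over all genes beside them. Members at 10 to 20 counts per library, such as Prr15 and Lsm5, were limited by depth. The number of members was 41 with 10 or more counts in all libraries and 54 with 1 or more in 24 libraries, and a region of 10 Mb on each side held 93.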
